A study of Schizosaccharomyces pombe with 6 samples.

Results

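Fission yeast (Schizosaccharomyces pombe) takes up and scavenges phosphate through a small set of genes, and the expression of 5 of them is described here out of the 7268 gene models in the deposited table. They are pho1 (SPBP4G3.02), pho84 (SPBC8E4.01c), tgp1 (SPBC1271.09), the gene SPBC1271.08c that lies beside tgp1, and the transcription factor gene pho7 (SPBC27B12.11c). The genes were picked by name, with their levels under the 3 conditions of the study already known, so their levels and differences are given as a description and carry no test. All 5 lie on chromosome II and all 5 are protein-coding models.

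The study asked how the inhibitors rapalink-1 and rapamycin act on gene expression. Wild-type 972 h- cells were grown in the rich medium YES with 3% glucose at 32 °C, and 2 mother cultures were split into flasks that received 100 nM rapalink-1, 100 nM rapamycin or no drug. Cells were collected after 5 h, and the drug doses and times therefore matched. Each condition has 2 libraries of polyA-captured RNA, sequenced as 150 bp paired-end reads. Rapamycin binds a small FKBP protein and the complex docks on TOR, the kinase that couples growth to nutrients, whereas rapalink-1 joins a rapamycin unit by a linker to an inhibitor of the kinase's active site. No deletion, transgene or other genotype was used, and the labels do not say which mother culture a library came from.

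The phosphate regulon of fission yeast is the set of genes that are kept low in phosphate-rich medium and switched on when phosphate is short. Pho1 is a secreted acid phosphatase that frees phosphate from organic molecules, Pho84 is a plasma membrane transporter for inorganic phosphate, and Tgp1 is a transporter for glycerophosphodiesters, the head groups left over from phospholipid breakdown. Pho7 is the zinc-cluster transcription factor that binds upstream of these genes. In phosphate-rich cells a long non-coding RNA that starts upstream of each target gene, prt upstream of pho1, prt2 upstream of pho84 and nc-tgp1 upstream of tgp1, is transcribed across the promoter and holds the gene down, and the termination of these RNAs responds to inositol pyrophosphates. SPBC1271.08c encodes a protein known only from S. pombe, and no role in phosphate handling is given for it in the files.

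The 250 bases before the RefSeq start of pho1, tgp1 and pho84 are shown because they are the promoter windows across which the upstream RNAs run. They were taken from RefSeq's ASM294v3 assembly and are written from 5′ to 3′ on the strand of the gene, with matches to the Pho7 site in capitals. The pho1 window is chrII:4447256-4447505 on the plus strand, the tgp1 window is chrII:352412-352661 on the minus strand, and the pho84 window is chrII:4443851-4444100 on the plus strand.
pho1: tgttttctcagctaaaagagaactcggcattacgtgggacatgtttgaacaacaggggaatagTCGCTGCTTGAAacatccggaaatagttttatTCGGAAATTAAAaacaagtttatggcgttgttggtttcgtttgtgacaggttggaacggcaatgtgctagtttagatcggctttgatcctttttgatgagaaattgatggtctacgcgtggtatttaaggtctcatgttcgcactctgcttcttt
tgp1: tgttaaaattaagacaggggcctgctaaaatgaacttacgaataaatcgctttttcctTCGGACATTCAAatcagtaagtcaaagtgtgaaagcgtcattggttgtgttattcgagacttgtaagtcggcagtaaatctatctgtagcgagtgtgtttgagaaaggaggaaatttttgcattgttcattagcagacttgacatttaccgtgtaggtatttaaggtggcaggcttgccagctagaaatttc
pho84: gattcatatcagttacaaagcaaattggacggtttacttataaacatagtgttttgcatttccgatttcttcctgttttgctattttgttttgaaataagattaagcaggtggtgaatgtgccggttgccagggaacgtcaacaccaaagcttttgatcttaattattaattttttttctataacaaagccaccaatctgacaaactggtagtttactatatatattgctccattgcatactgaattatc

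The pho1 window holds 2 matches to the Pho7 site, TCGCTGCTTGAA from 187 to 176 bases before the start and TCGGAAATTAAA from 155 to 144 bases before it. The tgp1 window holds 1 match, TCGGACATTCAA, from 192 to 181 bases before its start. The windows of pho84, SPBC1271.08c and pho7 hold no match on either strand, which says only that these letters are not in those 250 bases. Of 5112 protein-coding genes, 99 (1.94%) have a match in the same window. The Pho7 pattern was taken as already known, and whether it was first drawn from the pho1 and tgp1 promoters was not examined. The matches in those 2 windows may therefore have been fixed in advance. They are not an independent finding, and nothing is read from them against the 1.94%. The motif GATAA, bound by GATA-type factors, occurs once in the windows of pho84 and SPBC1271.08c, in both on the other strand, and in 54.2% of all windows. The longest stretch that the pho1 and tgp1 windows share on the same strand is ggtatttaaggt, 12 bases that lie 36 to 25 bases before the pho1 start and 37 to 26 bases before the tgp1 start. Of the 5112 windows, 2 hold that stretch, and these are the pho1 and tgp1 windows in which it was found. A match is a description of the sequence and was not tested as a site.

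Around pho1 and pho84 the gene models of the files and those of RefSeq differ, and this sets what a pho1 or pho84 value counts. In the files pho1 spans chrII:4446373-4449053 on the plus strand, and this model begins 1133 bases upstream of the RefSeq pho1 start. RefSeq places the non-coding RNA prt, there named nc-pho1, at chrII:4446359-4448918 on the same strand, and it covers 95.0% of the pho1 model of the files. The value listed for pho1 therefore takes in reads of prt as well as reads of pho1, and the 2 transcripts cannot be told apart in it. In the files pho84 spans chrII:4444125-4446200, of which the RefSeq RNA prt2 covers 88.9% on the same strand and the antisense RNA SPNCRNA.6616 covers 89.4% on the other. The files also hold an older gene model, SPBC8E4.02c, at chrII:4442574-4444191. All of its 1618 bases lie inside prt2, so that its value can hold reads of the upstream part of prt2. It shares 67 bases with pho84, and RefSeq has the antisense RNA SPNCRNA.6615 within it.

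The 2 upstream RNAs of this cluster run through most of the genes they precede. In RefSeq, prt starts 1147 bases before pho1 and overlaps 91.3% of it, and prt2 starts 1559 bases before pho84 and overlaps 89.0% of it. At tgp1 the layout differs, since nc-tgp1 starts 1823 bases upstream and overlaps the first 77 bases of the gene. The files hold no model for prt, prt2 or nc-tgp1 under their present names. The tgp1 model of the files (chrII:350692-352369, minus strand) shares 35 bases with nc-tgp1, while the RefSeq antisense RNA SPNCRNA.4681 spans 78.2% of it.

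SPBC1271.08c (chrII:355980-358079, plus strand) is divergent from tgp1, and 3611 bases separate the starts of the 2 models in the files. Its model begins 604 bases upstream of the RefSeq start. The antisense RNA SPNCRNA.1344 lies wholly inside it and covers 60.4% of its length, and that RNA is listed at 0 reads in every library. Among the non-coding models of the files that lie wholly inside a model on the other strand, 298 of 317 (94.0%) have no read in any library, against 211 of 1217 (17.3%) of the other non-coding models. The 0 reads of SPNCRNA.1344 are therefore no measure of its absence, and the level of SPBC1271.08c per length is uncertain. Whether reads were assigned by strand is not given in the sources used here, so reads from overlapping models on opposite strands cannot be told apart. pho7 (chrII:1345112-1347969, minus strand) overlaps no other model in the files.

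**Figure D1:**
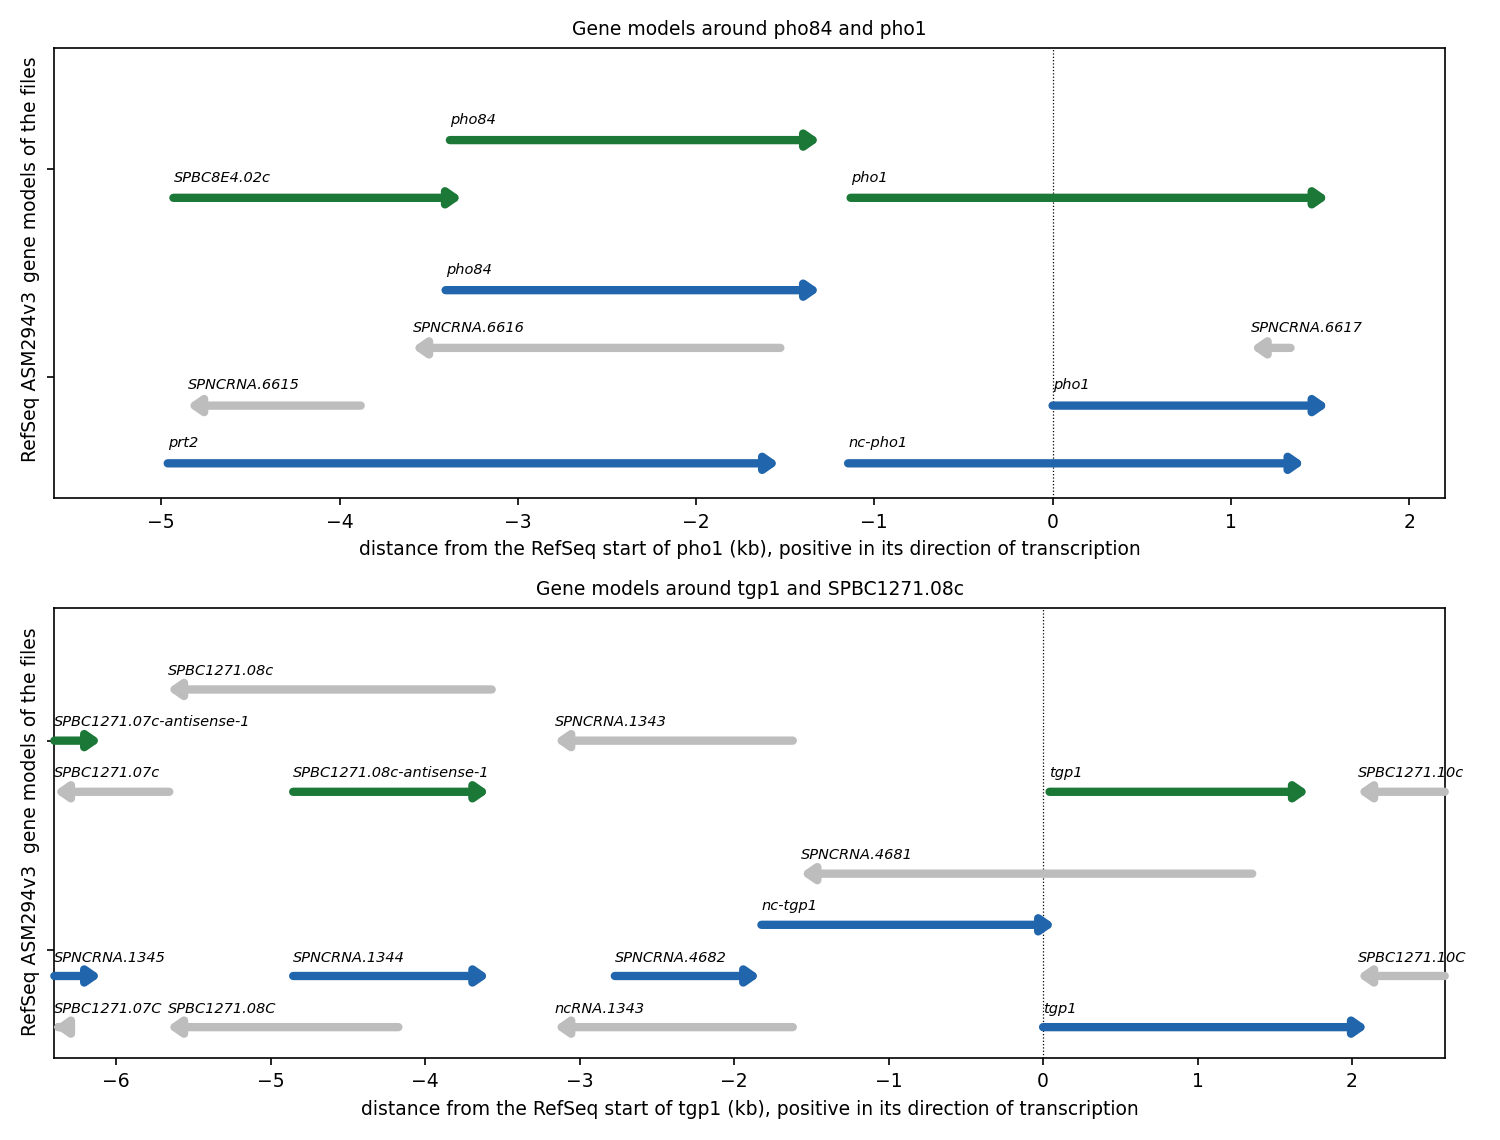
Gene models of the files (upper rows) and of RefSeq (lower rows) around pho84 and pho1, and around tgp1 and SPBC1271.08c, drawn to scale in kilobases from the RefSeq start of pho1 or tgp1. Coloured arrows run in the direction of pho1 or tgp1 and grey arrows in the opposite direction. The pho1 model of the files starts 1133 bases before the RefSeq pho1 start, close to the start of nc-pho1 (prt), and SPBC8E4.02c lies inside prt2.

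The RNA prt holds matches to the hexamer TNAAAC, which the RNA-binding protein Mmi1 recognises on RNAs it sends for decay. The densest part is shown because prt is known as a target of Mmi1. It was chosen for its matches and was not set against the densest parts of other RNAs. The 120 bases are chrII:4446677-4446796 on the plus strand, bases 319 to 438 of prt, with the 3 matches in capitals.
nc-pho1: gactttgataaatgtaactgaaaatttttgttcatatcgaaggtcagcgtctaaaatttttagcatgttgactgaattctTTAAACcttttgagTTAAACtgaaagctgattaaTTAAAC

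Over its 2560 bases prt holds 6 matches to TNAAAC on its own strand, 2.34 per kb. The RNA prt2 holds 11, 3.21 per kb, and nc-tgp1 holds 6, 3.16 per kb. The median over 4252 RefSeq long non-coding RNAs of at least 500 bases is 1.77 per kb, and 35.2% of them are at or above the density of prt, 18.6% at or above that of prt2 and 19.5% at or above that of nc-tgp1.

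The 6 libraries held 16527483 to 26321118 gene-assigned reads, and replicate libraries correlated at r of 0.997 to 0.998 across genes. All 5 genes passed the filter for testing, a mean of at least 1 FPKM (fragments per kilobase of gene length, scaled to a fixed number of reads) over the 6 libraries, as did 4847 models in all. Across these models, limma with Benjamini-Hochberg adjustment at 0.05 called 47.3% changed for rapalink-1 against untreated cells, 17.7% for rapamycin against untreated cells and 37.2% for rapalink-1 against rapamycin.

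pho1, the acid phosphatase gene, was highest in rapalink-1-treated cells, intermediate with rapamycin and lowest without drug. Its levels were 413.1 and 344.6 FPKM in rapalink-1 libraries, 164.9 and 183.2 FPKM in rapamycin libraries, and 104.4 and 125.9 FPKM in untreated libraries. No library of a condition overlapped another condition. These levels rest on 18471 and 15165 reads with rapalink-1, 8817 and 13377 with rapamycin, and 5428 and 5924 without drug. The means were 378.9 ± 48.4 FPKM with rapalink-1, 174.1 ± 13.0 FPKM with rapamycin and 115.1 ± 15.2 FPKM in untreated cells (SD, n = 2 each). In ratios of means, pho1 was 3.29 times the untreated level with rapalink-1, 1.51 times with rapamycin, and 2.18 times the rapamycin level with rapalink-1. In bulk RNA, more transcript per cell and a larger share of expressing cells cannot be told apart.

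pho84, the phosphate transporter gene next to pho1, followed the same order with smaller differences. It stood at 426.1 and 394.1 FPKM in rapalink-1 libraries, 285.9 and 328.1 FPKM in rapamycin libraries, and 234.7 and 269.8 FPKM in untreated libraries. The conditions did not overlap, although the lower rapamycin library lay close to the higher untreated one. The ratio of means was 1.63 for rapalink-1 over untreated, 1.22 for rapamycin over untreated and 1.34 for rapalink-1 over rapamycin. pho84 was above pho1 within each of the 6 libraries, for the model lengths of the files. The 2681 bases of the pho1 model include 1133 before the RefSeq pho1 start, and another length could change this order.

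tgp1, the glycerophosphodiester transporter gene, had the largest ratio of the 5 genes with rapalink-1. Its levels were 40.5 and 34.9 FPKM in rapalink-1 libraries, 12.7 and 14.1 FPKM in rapamycin libraries, and 8.78 and 11.03 FPKM in untreated libraries. The rapalink-1 libraries stood well apart from the other 4, while the rapamycin libraries were only slightly above the untreated ones. The reads behind these levels were 1103 and 934 with rapalink-1, 414 and 626 with rapamycin, and 278 and 316 without drug. The ratio of means was 3.81 for rapalink-1 over untreated, 1.35 for rapamycin over untreated and 2.81 for rapalink-1 over rapamycin.

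SPBC1271.08c, on the other side of the nc-tgp1 region from tgp1, differed from all 3 target genes in that its level with rapalink-1 was close to that with rapamycin. It was at 12.6 and 12.7 FPKM in rapalink-1 libraries and at 12.3 and 12.2 FPKM in rapamycin libraries, against 3.85 and 3.93 FPKM in untreated libraries. The 4 drug libraries lay close together, and all of them were well above the untreated ones. The reads were 442 and 437 with rapalink-1, 517 and 700 with rapamycin, and 157 and 145 without drug. The ratio of means was 3.25 for rapalink-1 over untreated, 3.16 for rapamycin over untreated and 1.03 for rapalink-1 over rapamycin.

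pho7, which encodes the activator of the regulon, was lower with rapalink-1, opposite to its target genes. It stood at 26.54 and 26.99 FPKM in rapalink-1 libraries, 33.2 and 34.5 FPKM in rapamycin libraries, and 34.4 and 34.4 FPKM in untreated libraries. Rapamycin and untreated libraries overlapped, and both rapalink-1 libraries lay below them. The ratio of means was 0.778 for rapalink-1 over untreated, 0.984 for rapamycin over untreated and 0.791 for rapalink-1 over rapamycin.

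**Figure D2:**
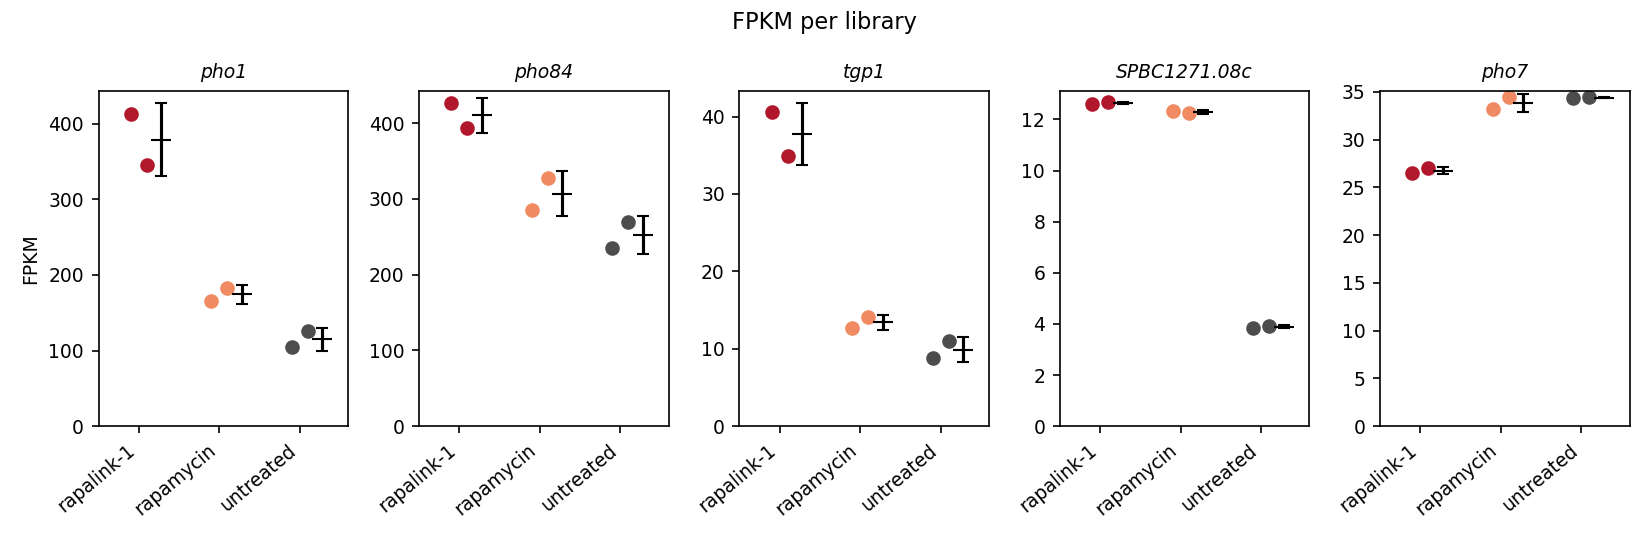
FPKM in each library (points) and the mean with its SD (bars, n = 2) for pho1, pho84, tgp1, SPBC1271.08c and pho7 in rapalink-1, rapamycin and untreated cells. Each vertical axis starts at 0. pho1, pho84 and tgp1 step down from rapalink-1 to rapamycin to untreated, SPBC1271.08c is level in the 2 drug conditions, and pho7 is lowest with rapalink-1.

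Because FPKM is per length, levels can be ordered between genes only for the model lengths of the files. The pho1 model holds 1133 bases before the RefSeq pho1 start, and 831 of the 2100 bases of SPBC1271.08c lie outside SPNCRNA.1344. Other lengths could change the places of pho1 and SPBC1271.08c in the orders and ranks below. In untreated cells the order was pho84, pho1, pho7, tgp1 and SPBC1271.08c, with no overlap between neighbours. With rapamycin the order was the same, and tgp1 at 12.7 and 14.1 FPKM was just above SPBC1271.08c at 12.3 and 12.2 FPKM. With rapalink-1 tgp1 stood above pho7, and pho84 stayed above pho1 within each library, although the higher pho1 library exceeded the lower pho84 library. Ranked from the highest level among 4847 tested models, pho84 was at place 303 with rapalink-1, 357 with rapamycin and 442 without drug, and pho1 at 323, 634 and 939 in the same 3 conditions. tgp1 ranked 2503 with rapalink-1, 3753 with rapamycin and 3897 without drug.

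On the scale of the fit, log2(scaled FPKM + 1), the differences for rapalink-1 minus untreated were 1.84 (SE 0.11) for tgp1, 1.72 (SE 0.10) for pho1, 1.48 (SE 0.08) for SPBC1271.08c, 0.71 (SE 0.08) for pho84 and -0.35 (SE 0.05) for pho7. The median of all tested models was -0.01. From the top, tgp1 ranked 45, pho1 48, SPBC1271.08c 66 and pho84 261 of 4847, and pho7 ranked 325 from the bottom. Of the 5 genes, 4 were called higher, against 24.8% of all tested models, and 1 lower, against 22.5%. The libraries of the 2 conditions did not overlap for any of the 5, with 4 higher and 1 lower, against 36.6% and 38.6% of all tested models without overlap. Since the genes were chosen on these values, nothing is read from the counts. The scale understates differences of low genes, which bears most on SPBC1271.08c.

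For rapamycin minus untreated, the differences on the same scale were 1.45 for SPBC1271.08c, 0.60 for pho1, 0.41 for tgp1, 0.29 for pho84 and -0.02 for pho7. SPBC1271.08c ranked 4 of 4847, far above pho1 at 71, tgp1 at 200 and pho84 at 431. Of the 5 genes, 4 were called higher, against 10.4% of all tested models, and 0 lower, against 7.28%. The same 4 were higher without overlap of the libraries, against 31.1%, and 0 were lower without overlap, against 32.8%, and nothing is read from this either. Leaving out untreated library 1 brought pho84 to 0.18 and tgp1 to 0.26, and the other omissions gave up to 0.39 for pho84 and 0.56 for tgp1. The sign of the pho7 difference changed with the library left out, from -0.04 to 0.01.

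For rapalink-1 minus rapamycin, which share dose and time, the differences were 1.42 for tgp1, 1.11 for pho1, 0.42 for pho84, 0.04 for SPBC1271.08c and -0.33 for pho7. The SE for SPBC1271.08c was 0.08, larger than its difference. Of the 5 genes, 3 were called higher, against 19.7% of all tested models, and 1 lower, against 17.4%. Without overlap of the libraries 4 were higher, against 34.6%, and 1 was lower, against 35.4%, and nothing is read from these counts. The 3 comparisons share libraries, so these values are set side by side and not as separate evidence.

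**Figure D3:**
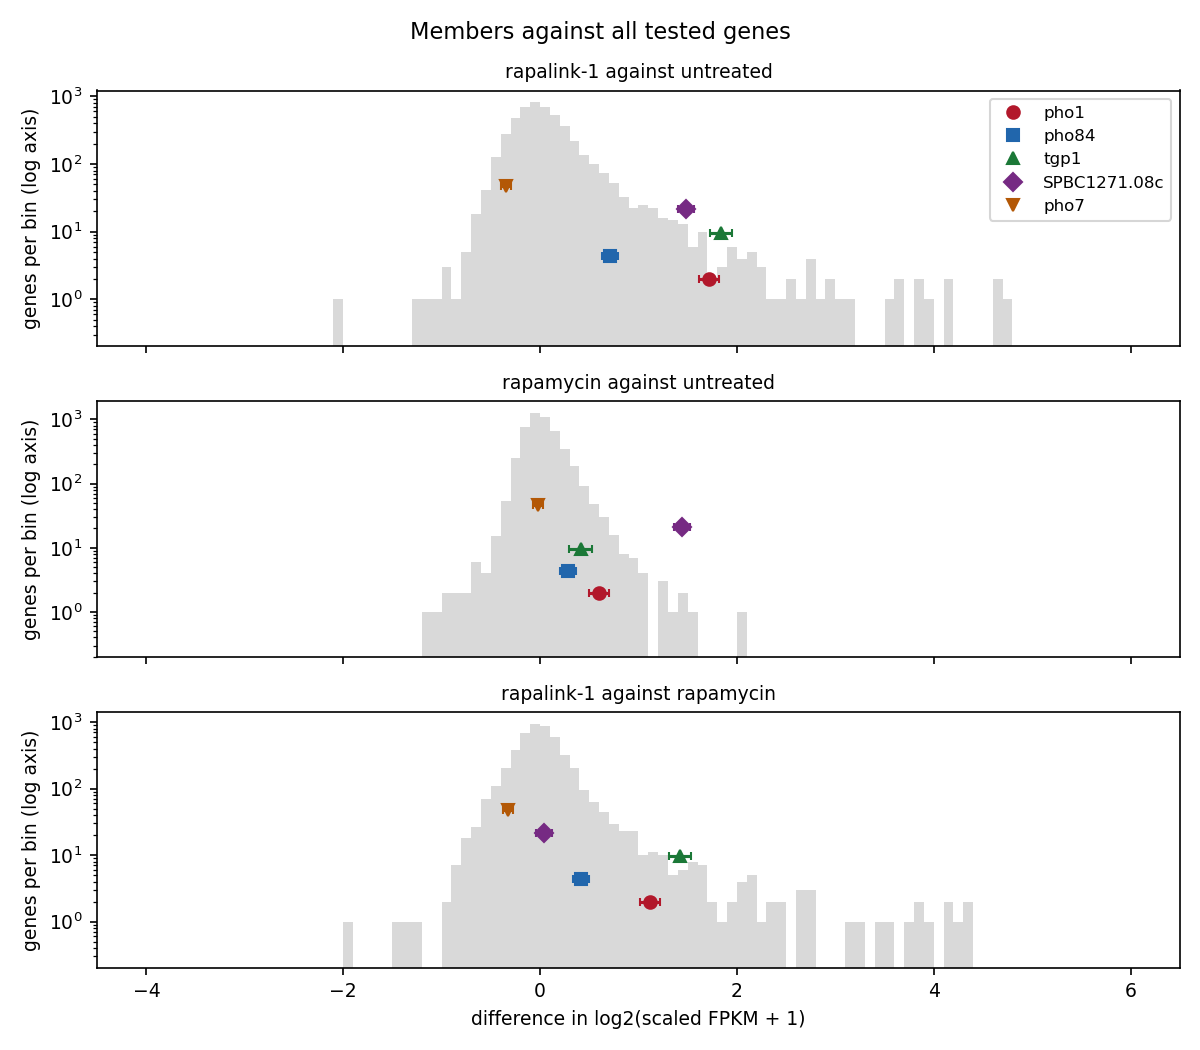
Histograms of the difference in log2(scaled FPKM + 1) over 4847 tested models (bins of 0.1, counts on a log axis) for each comparison, with the 5 genes as symbols and their SE as bars. The height of a symbol has no meaning. SPBC1271.08c sits far to the right with rapamycin, at 1.45, apart from pho1, tgp1 and pho84, and near 0 between the drugs.

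The models that lie beside or over the 5 genes were not chosen on their values and could be tested. SPBC8E4.02c, whose model lies in the upstream part of prt2, was higher with both drugs, in the same order as pho84. It was at 27.4 and 26.2 FPKM in rapalink-1 libraries, 22.0 and 22.1 FPKM in rapamycin libraries, and 18.3 and 19.2 FPKM in untreated libraries. The conditions did not overlap. The value cannot be read as prt2 alone, since reads of the antisense RNA SPNCRNA.6615 within the model cannot be told apart. The model also shares 67 bases with that of pho84, and RefSeq starts pho84 24 bases farther upstream, inside SPBC8E4.02c. pho84 had 9451 to 18545 reads per library, against 545 to 973 for SPBC8E4.02c. Reads of pho84 may therefore add to the level of SPBC8E4.02c and to its order, which was not tested. The log2 difference was 0.50 for rapalink-1 minus untreated (adjusted p = 0.000234, limma), 0.23 for rapamycin minus untreated (adjusted p = 0.0315) and 0.27 for rapalink-1 minus rapamycin (adjusted p = 0.00769). The call for rapamycin was lost under 7 of 16 alternatives, which included leaving out either rapamycin or either untreated library (adjusted p from 0.0224 to 0.155), and the other 2 calls under 0 of 16.

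SPNCRNA.1343, a non-coding RNA between tgp1 and SPBC1271.08c that runs in the direction of SPBC1271.08c, was not higher with either drug. It was at 29.7 and 31.7 FPKM in rapalink-1 libraries, 32.8 and 32.7 FPKM in rapamycin libraries, and 34.8 and 35.9 FPKM in untreated libraries. It fell with rapalink-1 against untreated cells (log2 difference -0.20, adjusted p = 0.0163, limma), with the call lost under 3 of 16 alternatives, namely DESeq2 and the omission of rapalink-1 library 1 or untreated library 2 (adjusted p from 0.0106 to 0.0897 over the 16). The differences of -0.10 for rapamycin minus untreated and -0.09 for rapalink-1 minus rapamycin did not pass (adjusted p = 0.203 and 0.220, limma). With rapalink-1 its difference was opposite in sign to those of tgp1 and SPBC1271.08c. In RefSeq, nc-tgp1 (chrII:352335-354234) and SPNCRNA.4682 (chrII:354244-355183) overlap SPNCRNA.1343 (chrII:354031-355573) on the other strand. The value of SPNCRNA.1343 may therefore hold reads of both, which cannot be told apart from its own.

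Farther along from SPBC1271.08c, SPBC1271.07c, an N-acetyltransferase gene whose model shares 13 bases with it, was too low to be tested. It had 32 and 27 reads in rapalink-1 libraries, 17 and 50 in rapamycin libraries, and 7 and 14 in untreated libraries. All 4 drug libraries were above the untreated ones. The lower rapamycin library, at 0.476 FPKM, was close to the higher untreated one, at 0.446 FPKM. Of all tested models, 36.6% were higher without overlap with rapalink-1 and 31.1% with rapamycin, each against untreated cells. SPNCRNA.304, on the other strand beyond SPBC1271.07c, had mean levels of 8.604 FPKM with rapalink-1, 9.88 FPKM with rapamycin and 6.72 FPKM without drug. It rose with rapalink-1 (log2 difference 0.32, adjusted p = 0.0209) and with rapamycin (0.50, adjusted p = 0.0101, limma), and the difference between the drugs, -0.18, did not pass (adjusted p = 0.174, limma). The rapalink-1 call was lost under 4 of 15 alternatives, quantile normalization and the omission of either rapalink-1 library or untreated library 2 (adjusted p up to 0.108), and the rapamycin call under 2, the omission of rapamycin library 2 or untreated library 2 (adjusted p up to 0.0748). The models SPNCRNA.1345 and SPNCRNA.1346 and the glutamine tRNA models beside SPBC1271.08c were listed at 0 reads in every library, and mug96 had at most 2. SPNCRNA.1345 lies wholly inside SPBC1271.07c on the other strand, as does most of SPNCRNA.1346. The 0 reads of these 2 RNAs are therefore no measure of their absence, and the low level of SPBC1271.07c per length is uncertain.

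On the other side of tgp1, SPBC1271.10c, a predicted membrane transporter gene, was highest with rapamycin. Its mean was 53.6 FPKM with rapalink-1, 63.9 FPKM with rapamycin and 56.1 FPKM without drug. It rose with rapamycin (log2 difference 0.19, adjusted p = 0.0385, lost under 6 of 16 alternatives, among them the omission of either rapamycin library or untreated library 2) and was lower with rapalink-1 than with rapamycin (-0.25, adjusted p = 0.00600, limma). Its difference between rapalink-1 and untreated cells, -0.06, did not pass (adjusted p = 0.385, limma). Upstream of prt2, ecl3 was at 71.7 and 75.8 FPKM with rapalink-1, 73.4 and 73.7 FPKM with rapamycin, and 46.4 and 73.4 FPKM without drug, and none of its 3 differences passed. This depends on the untreated library used: without untreated library 2 rapalink-1 minus untreated was 0.66 (adjusted p = 4.75e-05) and rapamycin minus untreated 0.65 (adjusted p = 0.000487, limma), while without untreated library 1 the rapamycin difference was 0.00 (adjusted p = 0.972).

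Near pho7, SPBC27B12.14, which runs divergent from it and encodes a predicted assembly factor of mitochondrial membrane complexes, rose where pho7 was lower. Its mean was 48.2 FPKM with rapalink-1, 43.0 FPKM with rapamycin and 41.3 FPKM without drug. The log2 difference was 0.22 for rapalink-1 minus untreated (adjusted p = 0.00894, limma, lost under 1 of 16 alternatives, at 0.0650 without untreated library 1) and 0.16 for rapalink-1 minus rapamycin (adjusted p = 0.0431, lost under 8, which included the omission of any library of either drug, at up to 0.223). SPBC27B12.12c, a predicted magnesium transporter gene, fell by 0.13 on the log2 scale with rapalink-1 against untreated cells (adjusted p = 0.0378, limma, lost under 6 of 16, among them the omission of either rapalink-1 library or untreated library 2, at up to 0.180). sip1, downstream of pho7, passed in no comparison, SPBC27B12.09c was listed at 0 reads in every library and tom7 had at most 3. SPBC27B12.09c lies wholly inside the sip1 model on the other strand, as does most of tom7. Their reads are therefore no measure of their absence, and cannot be told apart from those of sip1.

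Without a fold threshold, the shares called in 3 wider sets of genes with either drug against untreated cells were near those over all tested models. The sets were drawn from gene descriptions and names. The sets are uptake and salvage, storage and signalling, and the factors that act on the upstream RNAs, of which 52 of 59 genes were tested. They hold 5 genes of phospholipid transfer proteins of the Sec14 type, which entered by the words of their descriptions and are not known for phosphate uptake. With rapalink-1 against untreated cells 13 rose, 10 fell and 29 did not pass (limma, Benjamini-Hochberg), against 24.8% higher and 22.5% lower over all tested models. With rapamycin against untreated cells 5 rose, 5 fell and 42 did not pass, against 10.4% and 7.28%. Between rapalink-1 and rapamycin 8 were higher, 6 lower and 38 did not pass, against 19.7% and 17.4%. With a fold of at least 1.2 as well, 5 rose and 2 fell with rapalink-1 against untreated cells (16.9% and 11.3% of all tested models). With rapamycin 1 rose and 0 fell (6.56% and 1.67%), and between the drugs 2 were higher and 3 lower (12.2% and 9.2%). Each of these counts is a smaller share of the 52 genes than the share beside it, which was not tested. Under quantile normalization the counts without a fold became 9 higher and 16 lower, 3 and 8, and 8 and 9 in the same order of comparisons. The median log2 difference of the 52 genes was -0.02 for rapalink-1 minus untreated, -0.02 for rapamycin minus untreated and 0.01 for rapalink-1 minus rapamycin, against -0.01, 0.00 and -0.00 over all tested models.

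Of the uptake and salvage genes, 16 of 18 were tested, and with rapalink-1 against untreated cells 5 rose and 5 fell, against 24.8% and 22.5% of all tested models. The 5 phospholipid transfer genes are among the 16, and 1 of them rose and 2 fell. Those of the other predicted phosphate transporters that passed went in different directions, and pho841 (SPBC1683.01) passed in no comparison. The pho841 log2 differences were 0.05 for rapalink-1 minus untreated, 0.21 for rapamycin minus untreated and -0.16 for rapalink-1 minus rapamycin. This gene was named after its values were seen. pho842 (SPAC23D3.12) was at 84.5 and 72.1 FPKM with rapalink-1, 40.8 and 58.2 FPKM with rapamycin, and 43.2 and 53.6 FPKM without drug, and it rose with rapalink-1 against both (log2 difference 0.69 against untreated, adjusted p = 0.00714, and 0.67 against rapamycin, adjusted p = 0.0105, limma). Leaving out rapalink-1 library 1 or rapamycin library 1 ended the call between the drugs (adjusted p up to 0.0674). SPCC2H8.02 was at 30.6 and 29.9 FPKM with rapalink-1, 44.5 and 45.3 FPKM with rapamycin, and 36.3 and 35.7 FPKM without drug. It thus rose with rapamycin (log2 difference 0.32, adjusted p = 0.00479) and fell with rapalink-1 (-0.24, adjusted p = 0.00369), and the difference between the drugs, -0.55, passed as well (adjusted p = 5.03e-05, limma). Each of these SPCC2H8.02 calls was kept under all 16 alternatives. SPBC1703.13c, a predicted phosphate carrier of mitochondria, rose with rapalink-1 against untreated cells (0.34, adjusted p = 0.00229, limma) and was 0.47 above rapamycin.

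Phosphatase genes other than pho1 also went in different directions. pho4, a secreted acid phosphatase gene repressed by thiamine, was at 94.9 and 99.2 FPKM with rapalink-1, 126.3 and 121.7 FPKM with rapamycin, and 138.6 and 135.1 FPKM without drug. It fell with rapalink-1 against untreated cells (log2 difference -0.49, adjusted p = 3.25e-05) and against rapamycin (-0.35, adjusted p = 0.000317, limma). pho2, a 4-nitrophenylphosphatase gene, rose by 0.39 with rapalink-1 against untreated cells (adjusted p = 0.000504, limma). pho8, the vacuolar alkaline phosphatase gene, passed in no comparison, with log2 differences of 0.12, 0.04 and 0.07 for rapalink-1 minus untreated, rapamycin minus untreated and rapalink-1 minus rapamycin. crs103, one of the phospholipid transfer genes, fell by 0.33 with rapalink-1 against untreated cells (adjusted p = 0.000383, limma).

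Of the storage and signalling genes, 15 of 19 were tested, and with rapalink-1 against untreated cells 5 rose and 2 fell, against 24.8% and 22.5% of all tested models. Genes of the vacuolar complex that makes polyphosphate were among those that rose. vtc4, its polymerase subunit, was at 53.4 and 48.5 FPKM with rapalink-1, 45.9 and 43.6 FPKM with rapamycin, and 37.7 and 41.0 FPKM without drug, and rose with rapalink-1 (log2 difference 0.37, adjusted p = 0.00191, limma). nrf1, the vtc1-type subunit, rose by 0.34 with rapalink-1 (adjusted p = 0.000195) and by 0.13 with rapamycin (adjusted p = 0.0477, limma), the second call being lost under 9 of 16 alternatives, which included the replicate block and the omission of any rapamycin or untreated library. vtc2 also rose with rapalink-1, by 0.22 (adjusted p = 0.00335, limma), and was named after its value was seen.

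Of the enzymes of inositol pyrophosphate metabolism, asp1, aps1 and kcs1 passed in no comparison, siw14 passed with both drugs against untreated cells and ipk1 passed in all 3. asp1, which encodes a kinase that makes these signals, was at 22.1 and 24.98 FPKM with rapalink-1, 20.5 and 20.4 FPKM with rapamycin, and 20.5 and 21.3 FPKM without drug. Its log2 difference was 0.17 for rapalink-1 minus untreated (adjusted p = 0.0824, limma). aps1, whose product breaks inositol pyrophosphates down, had log2 differences of -0.08, -0.03 and -0.05 for rapalink-1 minus untreated, rapamycin minus untreated and rapalink-1 minus rapamycin. ipk1, which makes the inositol hexakisphosphate precursor, was at 40.6 and 40.2 FPKM with rapalink-1, 57.6 and 54.9 FPKM with rapamycin, and 46.0 and 50.7 FPKM without drug. It was lower with rapalink-1 than with rapamycin by a log2 difference of -0.47 (adjusted p = 0.000361), lower than without drug by -0.25 (adjusted p = 0.00744), and higher with rapamycin than without drug by 0.22 (adjusted p = 0.0306, limma, lost under 6 of 16 alternatives, among them the omission of either rapamycin library or untreated library 1). siw14 (SPBC17A3.03c), a phosphatase gene, was at 52.2 and 53.4 FPKM with rapalink-1, 51.9 and 52.3 FPKM with rapamycin, and 46.8 and 46.3 FPKM without drug. It rose with rapalink-1 (log2 difference 0.18, adjusted p = 0.00783, lost under 0 of 16 alternatives) and with rapamycin (0.16, adjusted p = 0.0327, limma, lost under 7, which included the omission of any rapamycin or untreated library). kcs1 (SPCC970.08), a predicted inositol polyphosphate kinase gene, had log2 differences of 0.01, 0.11 and -0.10 for rapalink-1 minus untreated, rapamycin minus untreated and rapalink-1 minus rapamycin. Both were named after their values were seen.

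Of the factors that act on the upstream RNAs, in transcription, termination or decay, 21 of 22 were tested and none passed with a fold of at least 1.2. With rapalink-1 against untreated cells red1, seb1 and fcp1 rose by 0.14 to 0.17 on the log2 scale, and mmi1, rhn1 and dis2 fell by 0.18, 0.18 and 0.25, so that 3 rose and 3 fell, against 24.8% and 22.5% of all tested models. Leaving out either untreated library ended each of these calls except that of dis2, and over the 16 alternatives the calls were lost under 2 for red1, 7 for seb1, 6 for fcp1, 3 for mmi1, 6 for rhn1 and 0 for dis2. mmi1, the gene of the TNAAAC-binding protein, was at 30.6 and 31.6 FPKM with rapalink-1, 30.5 and 32.5 FPKM with rapamycin, and 35.6 and 35.2 FPKM without drug (adjusted p = 0.0250 for rapalink-1 and 0.0702 for rapamycin, each against untreated, limma), and its rapalink-1 call was also lost without rapalink-1 library 1 (adjusted p = 0.105). With rapamycin against untreated cells 4 fell, namely dis2, pir2, ctf1 and ppn1, by 0.17 to 0.21, and 0 rose, against 7.28% and 10.4% of all tested models. These calls were lost under 4, 5, 6 and 10 of 16 alternatives in that order, in each case without rapamycin library 2 or either untreated library. Between the drugs red1 and seb1 were higher and dhp1 lower with rapalink-1, with calls lost under 3, 4 and 2 of 16 alternatives, which included the omission of rapalink-1 library 1 for red1 and seb1, rapalink-1 library 2 for dhp1, rapamycin library 1 for red1 and dhp1, and rapamycin library 2 for red1 and seb1. csk1, an activator of transcription kinases, had log2 differences within 0.03 of 0 in all 3 comparisons. All but mmi1 and csk1 were named here after their values were seen.

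**Figure D4:**
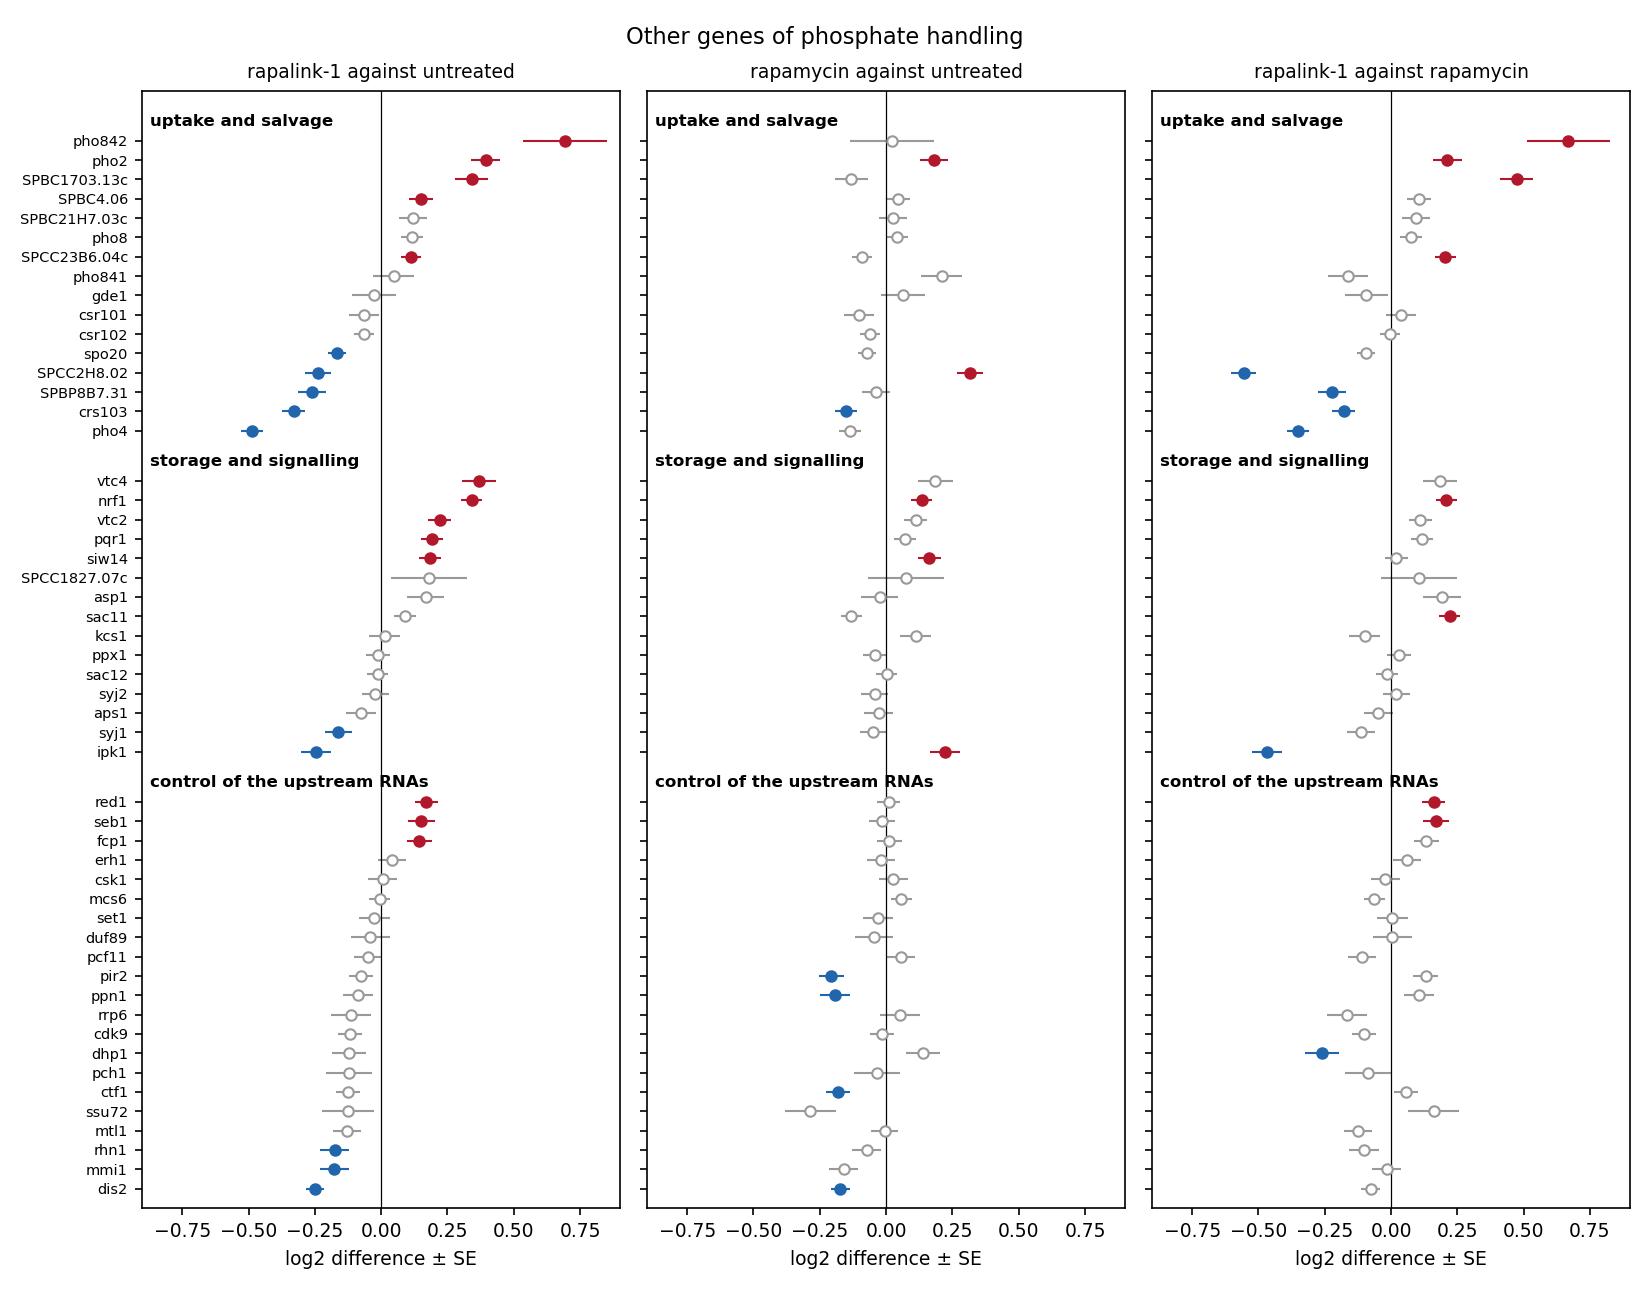
Log2 difference with its SE for the 52 tested genes of the 3 sets in each comparison, with filled red points for genes called higher, filled blue for lower and open points for those that did not pass. Genes are sorted within a set by rapalink-1 minus untreated. The sets hold genes on both sides of 0, and the set that acts on the upstream RNAs stays within 0.29 of 0.

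Outside phosphate handling, some genes had nearly the same profile over the 6 libraries as a member, measured as the distance between centred log2(scaled FPKM + 1) values. Closest to pho1 were the dubious model SPAC922.09 (distance 0.139), SPBPB21E7.11 (0.305) and the chaperone gene hsp104 (0.315), and tgp1 was as close to pho1 as hsp104 (0.315). hsp104 averaged 265 FPKM with rapalink-1, 135 FPKM with rapamycin and 95.2 FPKM without drug. Closest to tgp1 were SPAC922.09 (0.227), pbi2 (0.233), which encodes a proteinase B inhibitor, and SPAC1039.06 (0.313), a predicted alanine racemase gene. pbi2 averaged 465.9 FPKM with rapalink-1, 154 FPKM with rapamycin and 119 FPKM without drug.

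The nearest profiles of the other members came from different genes. Those closest to pho84 were sry1 (0.138), SPNCRNA.1565 (0.141) and atg20 (0.147). Those closest to SPBC1271.08c were aes1 (0.414), which averaged 114.7 FPKM with rapalink-1, 133 FPKM with rapamycin and 52.9 FPKM without drug, SPBPB21E7.04c (0.437) and pcm2 (0.539). The distances of SPBC1271.08c from the other 4 members were 1.17 for pho1, 1.2 for pho84, 1.47 for tgp1 and 1.94 for pho7. The 3 nearest genes were picked as the closest of all tested models outside the members. That they lie closer than the members is therefore nearly fixed in advance, and nothing is read from it. Those closest to pho7 were cpd1 (0.0431), toa2 (0.0516) and SPBC354.09c (0.0557). These distances describe likeness over 6 libraries.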

How the data were processed

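RNA of 6 libraries, 2 per condition, was analysed. Per the submitters' processing notes, HISAT2 2.0.5, featureCounts 1.5.0-p3, StringTie 1.3.3b and DESeq2 were used. The genome build and the strand setting of the counting are not given in the sources used here. The authors deposited FPKM for 7268 gene models, and read counts per gene for part of the genes in tables of their own comparisons, whose normalised values, group means, fold changes and p-values were not used. Reads were recovered from FPKM, the gene length and a library constant. They came out whole (within 0.001 reads) for 100% of genes and equalled each deposited count.

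Median-of-ratios scaling factors lay between 0.997 and 1.00. Then log2(scaled FPKM + 1) of the 4847 models with a mean of at least 1 FPKM was fitted with limma 3.58.1 (intensity trend, all 6 libraries, Benjamini-Hochberg, threshold 0.05) in R 4.3.3. An exact permutation test of 2 against 2 libraries cannot go below p = 0.333. The p-values measure the spread between these libraries, which came from 2 mother cultures. Alternatives were edgeR 4.0.16 and DESeq2 1.42.0 on recovered reads, other pseudocounts, filters and scalings, a replicate block and the omission of each library. The fits were tested on simulated data.

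Members and lists were chosen with earlier results of these data known. Named were the members, models within 3000 bases of them, list genes past the threshold by at least 1.2-fold (up to 6 in each direction per comparison), pho4, pho8, vtc4, asp1, aps1, csk1 and mmi1, and the 3 nearest profiles of each member. The list names pho87, xpr1 and vtc1 matched no model by name. RefSeq ASM294v3 holds 6846 of the 7268 identifiers, and 99.45% to 99.56% of the shared models on a chromosome have the same start or end.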

Additional observations from a re-analysis of the deposited data

How the results depend on the processing

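With 2 libraries a condition, the rapamycin comparison depends most on the choices made. Its count of changed models, 859, became 413 without the intensity trend and 240 to 985 when a library was left out (487 without rapamycin library 1, 240 without rapamycin library 2, 392 without untreated library 1 and 449 without untreated library 2). Its count of changed list genes, 10, became 5 without the filter on low values, 1 without the trend, 6 with DESeq2 and 1 to 13 when a library was left out (3 and 1 without the rapamycin libraries, 1 and 2 without the untreated ones). The counts for rapalink-1 against untreated cells, 2291 models and 23 list genes, became 1685 to 2143 and 15 to 22 (15 without untreated library 1), and those for rapalink-1 against rapamycin, 1802 and 14, became 1274 to 1730 and 10 to 19. Each omission leaves fewer libraries, and the lone library of a condition is then assumed to vary like the others. For the other moves the cause was not tested. Under quantile normalization the split was 942 higher and 1488 lower for rapalink-1 against untreated cells, against 1200 and 1091, 446 and 429 for rapamycin against untreated cells, against 506 and 353, and 792 and 1114 between the drugs, against 957 and 845.

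Deviations of libraries with the same replicate number correlated at 0.04, 0.001 and -0.01 between conditions, so the numbers were not taken to pair libraries. With the replicate block, 2288, 864 and 1791 models were called for rapalink-1 against untreated, rapamycin against untreated and rapalink-1 against rapamycin, and 23, 9 and 14 list genes.

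Over 222 combinations of a comparison and 1 of 74 genes (list genes, neighbours and nearest profiles), 3276 repeats gave the same call, 180 lost it and 78 gained it. The sign changed in 86 of the 3276, and 0 of these were called values. SPBC1271.08c moved most among the members, from 1.45 to 1.67 for rapamycin minus untreated under edgeR and to 1.34 under quantile normalization.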
